A study of Mus musculus with 10 samples.

Results

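Transcripts of 9 complement genes were followed in the dentate gyrus of mice given extra Sox11: the C1q chains C1qa, C1qb and C1qc, the components C3 and C4b, the regulators C4bp and Serping1, and the receptors C3ar1 and C5ar1. They were found by symbol among 48526 gene identifiers, and all 9 reached the mean of 10 normalized counts that 17007 genes reached. The Sox11 group held 5 C57Bl/6 mice aged 8 weeks in which Sox11 had been delivered to the left and right gyrus by an adeno-associated virus, serotype 9, and the GFP group held 5 mice of the same strain and age given the same serotype carrying green fluorescent protein. All 10 mice had therefore had a virus injected into the brain, and no uninjected tissue is part of the comparison. The labels used here name neither the promoter of the viruses nor the time between injection and dissection. RNA came from the whole microdissected gyrus, so fewer cells of a type and less RNA per cell cannot be told apart.

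Complement is a cascade of secreted proteins that tags surfaces for removal. In its classical arm C1q, built of the products of C1qa, C1qb and C1qc, binds a target, its attached proteases cleave C4 and C2, and the resulting enzyme splits C3, whose large fragment stays on the target while the small one, C3a, acts on the receptor C3ar1. Further down, C5a acts on C5ar1. C1 inhibitor, made from Serping1, blocks the proteases of C1, and C4b-binding protein, made from C4bp, helps to inactivate C4b. In the brain microglia are the main source of C1q, astrocytes make C4 and C3, and C1q and C3 are known for marking synapses that microglia then remove.

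Libraries are called by the numbers in the deposited table, Sox11 1, 2, 3, 6 and 7 and GFP 1, 3, 4, 5 and 6, and held between 45100154 and 68769808 reads. Sox11 itself had between 9803 and 20434 normalized counts in the Sox11 libraries and between 1364 and 1634 in the GFP libraries (log2 fold change 3.08, SE 0.18, two-sided exact permutation p = 0.00794, the smallest that 5 against 5 libraries can give). Reads from viral and mouse copies cannot be separated here. The granule neuron markers Prox1 and Dsp were abundant in all 10 libraries, with at least 13354 and 7108 normalized counts. Their log2 fold changes of 0.20 and 0.09 did not pass in limma. Of 6 granule neuron markers 1 rose, 2 fell and 3 did not pass, beside 9.65% and 9.36% of all genes that rose and fell. The median log2 fold change of that list was 0.12. C1ql2, a synaptic C1q-like protein of granule neurons that is no part of complement, fell, with 6529 to 8458 normalized counts in Sox11 libraries and 7816 to 11999 in GFP libraries (log2 fold change -0.41, SE 0.12, limma adjusted p = 0.0389). Library GFP 3 stood apart: the 10 choroid plexus markers, among them Ttr, Folr1 and Kcnj13, summed to 385151 normalized counts there, against 795 to 2601 in the Sox11 libraries and 1817 to 3406 in the other GFP libraries, so results that turn on GFP 3 are also given without it.

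Of the 9 genes 4 rose with Sox11 (C1qb, C1qc, C4b and C3ar1), 1 fell (C4bp) and 4 did not pass (C1qa, C3, Serping1 and C5ar1), by limma's moderated test with p-values adjusted over all genes. Among all genes tested 9.65% rose and 9.36% fell, and the shares were 10.2% and 8.88% in edgeR, 12.1% and 12.0% in DESeq2 and 10.2% and 8.83% in limma-voom. The median log2 fold change of the 9 genes was 0.33, and that of all genes was -0.01. The groups did not overlap for C1qb, C1qc and C3ar1, higher with Sox11, and for C4bp, lower with Sox11. Of all genes tested 8.63% were higher and 7.29% lower without overlap.

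The 250 bases before the RefSeq start of a gene (GRCm38.p6) were available for 4 of the 5 genes that passed, C1qb, C1qc, C4bp and C3ar1, and are shown because these are the genes of the 9 that passed and have an entry. Each is printed 5′ to 3′ on the minus strand, the strand of its gene, without the bases that GENCODE places inside a transcript, and capitals mark the matches to the ETS core AGGAAGT, read here on the other strand.
C1qb, chr4:136886201-136886450: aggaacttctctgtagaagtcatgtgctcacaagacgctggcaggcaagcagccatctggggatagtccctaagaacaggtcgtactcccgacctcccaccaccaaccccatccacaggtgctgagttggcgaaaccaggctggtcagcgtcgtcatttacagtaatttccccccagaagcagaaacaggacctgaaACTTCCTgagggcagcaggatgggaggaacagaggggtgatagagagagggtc
C1qc, chr4:136893066-136893164: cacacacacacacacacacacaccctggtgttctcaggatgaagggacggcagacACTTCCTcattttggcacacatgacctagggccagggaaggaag
C4bp, chr1:130661633-130661868: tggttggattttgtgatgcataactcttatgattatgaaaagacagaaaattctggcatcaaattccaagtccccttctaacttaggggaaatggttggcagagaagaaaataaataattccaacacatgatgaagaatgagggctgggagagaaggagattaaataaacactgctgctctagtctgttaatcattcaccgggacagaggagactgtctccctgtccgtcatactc
C3ar1, chr6:122856162-122856407: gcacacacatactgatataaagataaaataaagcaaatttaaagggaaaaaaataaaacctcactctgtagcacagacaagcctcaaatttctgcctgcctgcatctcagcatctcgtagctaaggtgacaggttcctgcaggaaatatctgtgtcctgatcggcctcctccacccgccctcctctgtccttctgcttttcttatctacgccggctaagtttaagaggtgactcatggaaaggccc

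Letters were searched on both strands over the whole 250 bases. AGGAAGT, the core bound by ETS factors such as PU.1 of microglia, occurred 1 time before C1qb and 1 time before C1qc, and in 7.69% of the 32817 promoters of that length. The SOX cores ACAAAG and ACAATG, found in 16.5% and 10.7% of promoters, were in none of the 4 windows. Nor were the STAT letters TTCNNNGAA (7.01% of promoters) or the E-box CACGTG (6.02%). A match is a match of letters and not a shown binding site, and a window without one says nothing about the factor.

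The C1q chains come first in the cascade and had the highest levels per kilobase of the 9 transcripts, given further on. Their genes lie side by side on the minus strand of chromosome 4 (GRCm38), C1qb at 136880129 to 136886187, C1qc at 136889804 to 136893065 and C1qa at 136895917 to 136898803. C1qb had 3129, 2819, 2498, 2575 and 2900 normalized counts in Sox11 1, 2, 3, 6 and 7, against 2151, 2271, 2278, 2170 and 2207 in GFP 1, 3, 4, 5 and 6. The GFP libraries lay within a narrow band and all 5 Sox11 libraries lay above it. The means were 2784 ± 254 with Sox11 and 2215 ± 57.5 with GFP (SD, n = 5 each), 25.3% higher on the fitted scale (log2 fold change 0.33, SE 0.06, limma adjusted p = 0.00355).

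C1qc had 2732, 2472, 2358, 2544 and 2714 normalized counts in Sox11 1, 2, 3, 6 and 7, against 1967, 2211, 2204, 2045 and 1966 in GFP 1, 3, 4, 5 and 6. Again no GFP library reached the lowest Sox11 library, Sox11 3. C1qc rose by 0.30 on the log2 scale (SE 0.06, limma adjusted p = 0.00365). C1qa had 2987, 2525, 2303, 2762 and 3053 normalized counts in Sox11 1, 2, 3, 6 and 7, against 2290, 2471, 2499, 2131 and 2087 in GFP 1, 3, 4, 5 and 6. Here Sox11 3 fell inside the GFP range and the other Sox11 libraries lay above it. The log2 fold change of C1qa was 0.24 (SE 0.08) with a limma adjusted p of 0.0650, which was 0.0475 in edgeR, 0.0304 in DESeq2, 0.0478 with TMM scaling and 0.0236 without Sox11 3.

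**Figure D1:**
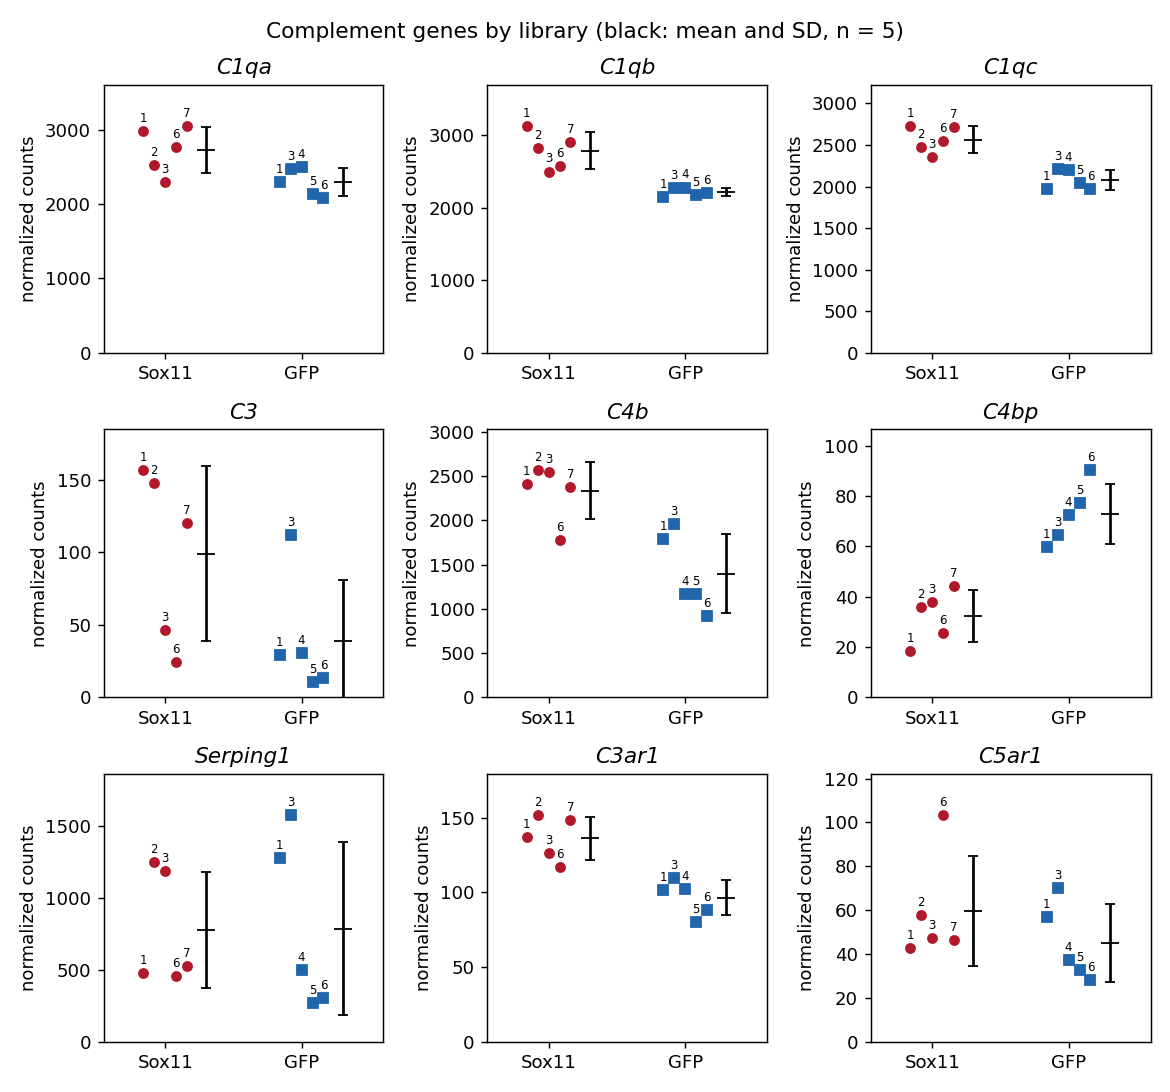
Normalized counts of each of the 9 complement genes (vertical axes, from 0) in every library, with Sox11 (red circles) left of GFP (blue squares), library numbers beside the points, and black bars for the mean and SD (n = 5 each; the lower bar of C3 in GFP is cut at 0). The groups are apart for C1qb, C1qc, C3ar1 and C4bp, and the values of Serping1 spread widely within each group.

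Whether the chains kept their proportions was asked from the ratios within each library, which do not depend on the scaling of libraries. Log2(C1qb/C1qa) averaged 0.03 ± 0.12 in the Sox11 libraries and -0.05 ± 0.10 in the GFP libraries (SD, n = 5 each), a difference of 0.08 (two-sided exact permutation p = 0.230, 0.405 adjusted over 3 ratios). For C1qc/C1qa the difference was 0.06 (exact p = 0.270, adjusted 0.405) and for C1qc/C1qb -0.02 (exact p = 0.595, adjusted 0.595). No difference in proportion was detectable with 5 libraries a group, which does not show that the proportions were equal.

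Of 16 markers of microglia 2 rose, none fell and 14 did not pass, beside 9.65% and 9.36% of all genes that rose and fell, and their median log2 fold change was 0.03. The homeostatic markers Cx3cr1, P2ry12 and Tmem119 had log2 fold changes of 0.04 (SE 0.06), -0.24 (SE 0.11) and 0.00 (SE 0.07). The limma adjusted p was 0.695 for Cx3cr1, 0.147 for P2ry12 and 0.983 for Tmem119. The 2 that rose, named here after their values were seen, were the adaptor Tyrobp (0.18, SE 0.05) and the lysosomal membrane protein Laptm5 (0.21, SE 0.06). Their calls were lost in 9 and 7 of the 10 fits without 1 library, with adjusted p-values up to 0.0938 and 0.0897. The 16 markers together summed to between 28543 and 35004 normalized counts in Sox11 libraries and between 29309 and 35648 in GFP libraries, and none was at 0. The C1q chains are not among these markers, and their own sum equalled 28.1%, 24.0%, 25.1%, 24.2% and 24.8% in Sox11 1, 2, 3, 6 and 7, and 21.9%, 20.8%, 19.6%, 20.4% and 20.7% in GFP 1, 3, 4, 5 and 6, of the marker sum of the same library. This ratio was higher in every Sox11 library than in any GFP library, a description for which no test was made.

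**Figure D2:**
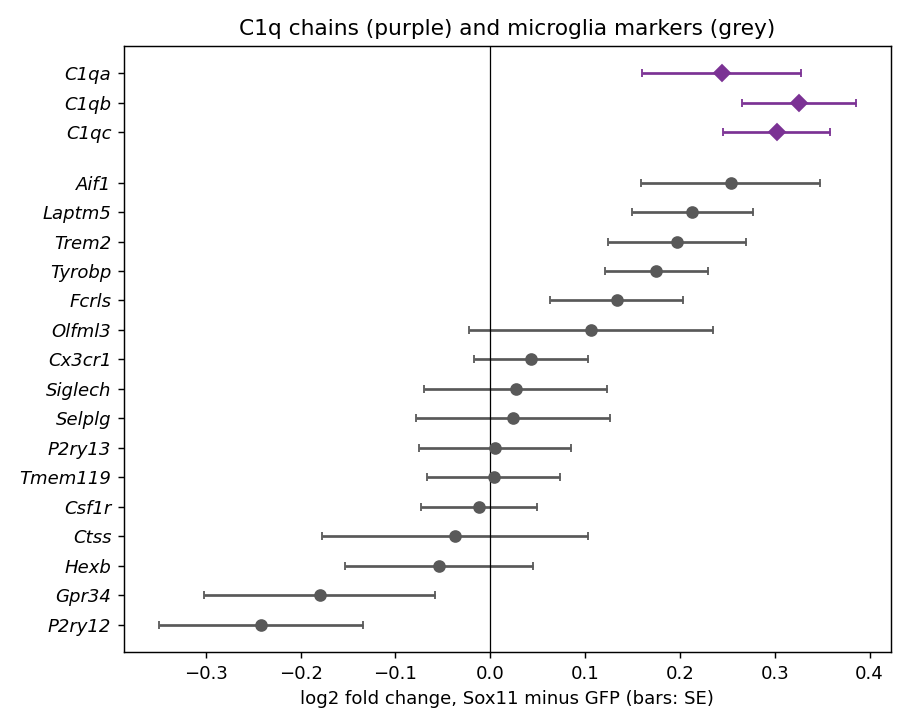
Log2 fold change, Sox11 minus GFP, with its SE (horizontal axis) for the C1q chains (purple diamonds) and 16 microglia markers (grey circles, in falling order). C1qb (0.33) and C1qc (0.30) lie above all of the markers, and C1qa (0.24) lies beside Aif1 (0.25), the highest of them.

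C4b, the next component of the classical arm (chromosome 17, 34728380 to 34743882), had 2412, 2568, 2545, 1783 and 2377 normalized counts in Sox11 1, 2, 3, 6 and 7, against 1788, 1960, 1167, 1167 and 915 in GFP 1, 3, 4, 5 and 6. The 4 highest values were all from Sox11 libraries, Sox11 6 lay below GFP 1 and GFP 3, and the other GFP libraries lay far lower. C4b averaged 2337 ± 321 with Sox11 and 1399 ± 450 with GFP (SD, n = 5 each) and rose by 0.79 on the log2 scale (SE 0.21, limma adjusted p = 0.0249). That call was lost without Sox11 1, 2, 3 or 7 or without GFP 4 or 5 (adjusted p of 0.0521 to 0.0614) and without the filter on low values (0.0526), while the log2 fold change stayed between 0.65 and 0.92 whichever library was left out. Only 51.7% of the 31-base words of C4b are its own, the rest being shared mostly with its neighbour C4a, so its reads may be divided between the copies. C4a itself averaged 54.9 normalized counts with Sox11 and 37.5 with GFP (log2 fold change 0.58, limma adjusted p = 0.0916).

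C3, the protein on which all arms of the cascade meet (chromosome 17, 57203970 to 57228136), was scarce. It had 157, 148, 46.4, 24.4 and 121 normalized counts in Sox11 1, 2, 3, 6 and 7, against 29.0, 112, 30.8, 10.2 and 13.5 in GFP 1, 3, 4, 5 and 6. The Sox11 libraries split into 3 high and 2 low ones. Among the GFP libraries only GFP 3, which had by far the most choroid plexus transcripts, came near the high ones. The log2 fold change of 1.52 (SE 0.71) had a limma adjusted p of 0.168, and without GFP 3 it was 2.03 with an adjusted p of 0.0410. With each other library left out the adjusted p of C3 lay between 0.0792 and 0.315. GFP 3 was also highest of the 10 libraries in summed markers of fibroblasts and meninges, border macrophages, endothelium and reactive astrocytes. Its interferon response genes summed to 7579 normalized counts, below only Sox11 1 (9877). The part of these or of the choroid plexus transcripts in the GFP 3 value was not tested.

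Interferon response and astrocyte markers were compared too. Of 18 interferon response genes 7 rose, none fell and 11 did not pass, beside 9.65% and 9.36% of all genes, with a median log2 fold change of 0.81. Mx1, 1 of the 7, reached the filter only through its Sox11 libraries. The summed level of the list overlapped between the groups, at 4973 to 9877 normalized counts in Sox11 libraries and 3149 to 7579 in GFP libraries. Ifit1 and Ifit3 did not pass (log2 fold changes 1.01 and 0.76), and Isg15, an antiviral ubiquitin-like protein, rose by 1.26 (SE 0.33). Of 12 astrocyte markers 4 rose, none fell and 8 did not pass, beside 9.65% and 9.36% of all genes, with a median log2 fold change of 0.09. Their sums overlapped, at 341187 to 421704 normalized counts with Sox11 and 311108 to 392821 with GFP. Gfap, the intermediate filament of astrocytes, and Aldh1l1 rose by 0.46 and 0.22, while the water channel Aqp4 had a log2 fold change of 0.04. Of 19 reactive astrocyte markers 18 were tested. Of these 1 rose, the interferon-induced GTPase Iigp1, none fell and 17 did not pass, beside 9.65% and 9.36% of all genes. The median log2 fold change of the list was 0.29. Serpina3n and Vim of that list had log2 fold changes of -0.15 and 0.27 and did not pass, and Lcn2 stayed at 19.9 normalized counts or fewer and was not tested. The part of interferon or astrocyte transcripts in the C4b and C3 values was not tested.

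Of the receptors, C3ar1, which binds C3a and in brain is found mainly on microglia (chromosome 6, 122847138 to 122856161), had 137, 152, 126, 117 and 148 normalized counts in Sox11 1, 2, 3, 6 and 7, against 101, 109, 102, 80.3 and 88.3 in GFP 1, 3, 4, 5 and 6. All Sox11 libraries lay above all GFP libraries. C3ar1 rose by 0.50 on the log2 scale, or 41.0% (SE 0.12, limma adjusted p = 0.0155). C5ar1, the C5a receptor (chromosome 7, 16246743 to 16259540), had 42.8, 57.6, 47.2, 103.5 and 46.6 normalized counts in Sox11 1, 2, 3, 6 and 7, against 57.0, 70.3, 37.4, 32.5 and 28.0 in GFP 1, 3, 4, 5 and 6. Its groups overlapped, 1 library, Sox11 6, stood high, and the log2 fold change of 0.40 (SE 0.30) did not pass (limma adjusted p = 0.413).

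C4bp was the only 1 of the 9 genes that fell. Lying on chromosome 1 (130634773 to 130661632) within the cluster of complement regulators that also holds Cd55, it had 18.2, 35.7, 38.0, 25.6 and 44.5 normalized counts in Sox11 1, 2, 3, 6 and 7, against 59.9, 64.5, 72.6, 77.3 and 90.3 in GFP 1, 3, 4, 5 and 6. No Sox11 library reached the lowest GFP library, although the counts were low. C4bp averaged 32.4 ± 10.4 with Sox11 and 72.9 ± 11.9 with GFP (SD, n = 5 each) and fell by 56.4% (log2 fold change -1.20, SE 0.23, limma adjusted p = 0.00472). Leaving out any 1 library gave a log2 fold change between -1.32 and -1.01 and an adjusted p of at most 0.0141.

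Serping1, which encodes C1 inhibitor (chromosome 2, 84765387 to 84775444), differed far more between mice of a group than between groups. It had 475, 1254, 1188, 459 and 524 normalized counts in Sox11 1, 2, 3, 6 and 7, against 1279, 1580, 498, 271 and 302 in GFP 1, 3, 4, 5 and 6. Each group held 2 libraries at 1188 or more normalized counts and 3 at 524 or fewer. The means were 780 ± 404 with Sox11 and 786 ± 603 with GFP (SD, n = 5 each), while the log2 fold change was 0.21 (SE 0.57, limma adjusted p = 0.863), of opposite sign to the difference in means.

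The same 4 libraries, GFP 3, GFP 1, Sox11 2 and Sox11 3, held the highest levels of Serping1 and of the 8 markers of fibroblasts and meninges, in the same order. These markers, among them Col1a1, Dcn and Lum, summed to 21564 and 19286 normalized counts in Sox11 2 and 3 and to 24863 and 41142 in GFP 1 and 3, but to at most 4717 in the remaining Sox11 and 7253 in the remaining GFP libraries. None of the 8 passed limma's test between the groups, and 1 reached an unadjusted p under 0.05. Vtn, which encodes vitronectin, a regulator of the terminal complex, had its highest values in those libraries too, with 5890 and 5668 in Sox11 2 and 3 and 5961 and 7561 in GFP 1 and 3. The 5 border macrophage markers, Mrc1, Cd163, Pf4, Lyve1 and Cbr2, were highest in the same 4 libraries in another order, summing to 1032 and 912 normalized counts in Sox11 2 and 3 and 937 and 1644 in GFP 1 and 3, against 316 or fewer in the other Sox11 and 543 or fewer in the other GFP libraries. The part of fibroblast and meningeal transcripts in the Serping1 and Vtn values was not tested.

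Within the GFP group C4b too was highest in GFP 1 and GFP 3. Sox11 1 and 7, with few fibroblast transcripts (4717 and 3936), had C4b values close to those in Sox11 2 and 3. Sox11 6, with the lowest fibroblast and meninges sum of the 10 libraries (3066), had the lowest C4b value of its group (1783). The part of fibroblast and meningeal transcripts in the C4b values was not tested. Taking only the libraries numbered 1 to 3, C4b was 0.42 higher on the log2 scale with Sox11 (3 libraries) than with GFP (2 libraries), and among those numbered 4 to 7 it was 0.94 higher (2 against 3). C1qb (0.34 and 0.30), C1qc (0.27 and 0.34), C3ar1 (0.39 and 0.55) and C4bp (-1.07 and -1.22) also had the same direction in either division. Their groups did not overlap over all libraries, so the same direction without overlap in each division had to follow and adds no support. Serping1 had log2 differences of -0.67 and 0.51 and C5ar1 of -0.37 and 1.08, of opposite sign. What the numbers stand for is not given in the sources used here.

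**Figure D3:**
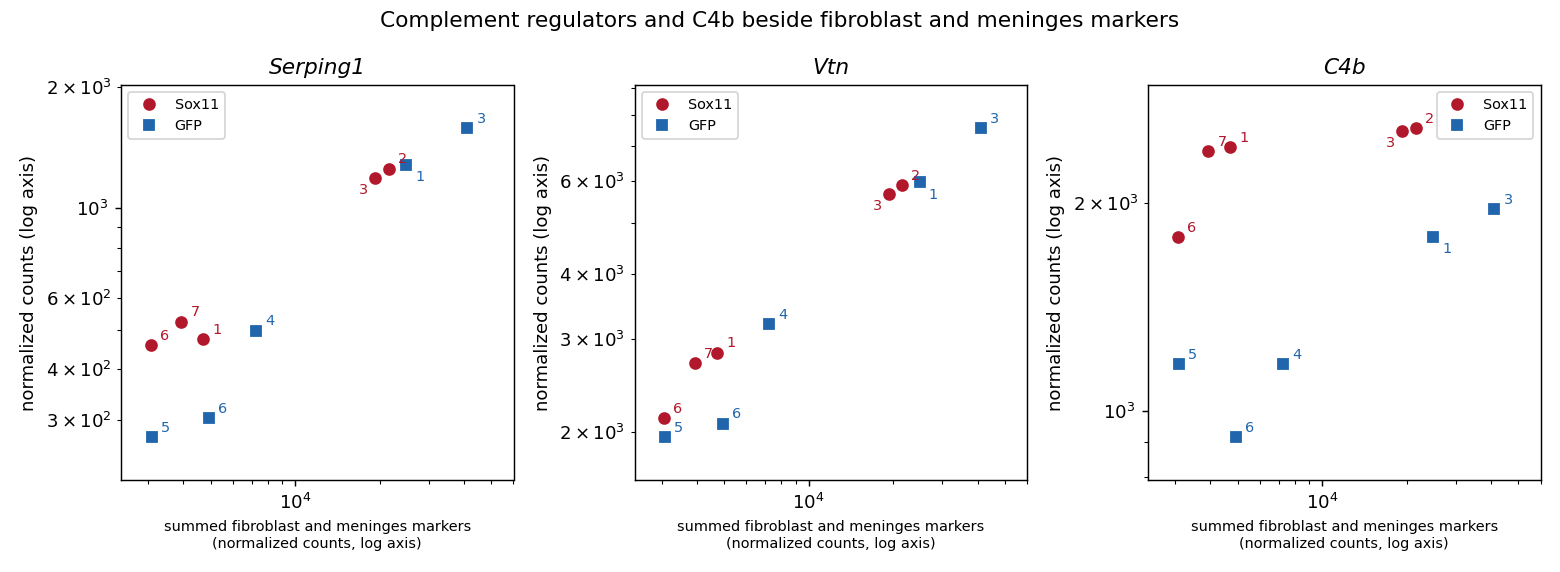
Normalized counts of Serping1, Vtn and C4b (vertical log axes) against the summed normalized counts of 8 fibroblast and meninges markers (horizontal log axes) in each library, Sox11 as red circles and GFP as blue squares with library numbers. Serping1 and Vtn are highest in GFP 3, GFP 1, Sox11 2 and Sox11 3, where the markers are highest. C4b is at 2377 or more in 4 of 5 Sox11 libraries, at both low and high marker sums. It is at 1783 in Sox11 6, where the marker sum is lowest (3066).

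Per kilobase of annotated exon the order of the 9 transcripts in Sox11 libraries was C1qa (2621 ± 303 normalized counts per kb), C1qb (2559 ± 234), C1qc (1328 ± 82.7), C4b (410 ± 56.3), Serping1 (335 ± 174), C3ar1 (31.6 ± 3.41), C5ar1 (23.2 ± 9.80), C3 (19.3 ± 11.7) and C4bp (4.81 ± 1.55), as mean ± SD of 5. In GFP libraries the levels in the same order of genes were 2207 ± 181 for C1qa, 2036 ± 52.9 for C1qb, 1077 ± 63.2 for C1qc, 246 ± 78.9 for C4b, 338 ± 259 for Serping1, 22.4 ± 2.74 for C3ar1, 17.5 ± 6.97 for C5ar1, 7.59 ± 8.10 for C3 and 10.8 ± 1.76 for C4bp. C1qa and C1qb, C4b and Serping1, and C5ar1 and its neighbours C3ar1 and C3 in Sox11 libraries did not differ beyond their spread, taken as overlapping mean ± SD. C1qb and C1qc differed beyond it in both groups. In GFP libraries Serping1 stood above C4b and C4bp above C3, each pair within its spread. The length counts every annotated exon, so a gene with rarely used exons appears lower than its main transcript.

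The rest of the pathway was listed by role. Of 54 other complement genes 32 reached the filter, and of these 3 rose, 2 fell and 27 did not pass, beside 9.65% and 9.36% of all genes. Their median log2 fold change was -0.01. Among the remaining 22, 3 had no read in any library, among them Mbl1 and Colec10. The 3 that rose were Masp1, Clu and Itgax. Masp1, a protease of the lectin arm, had 381 ± 34.6 normalized counts with Sox11 and 275 ± 23.2 with GFP (SD, n = 5 each). It rose by 0.47 on the log2 scale with no overlap (SE 0.09, limma adjusted p = 0.00450). Clu, or clusterin, a chaperone abundant in astrocytes that also blocks the terminal complex, averaged 50245 ± 2910 with Sox11 and 42593 ± 2858 with GFP (log2 fold change 0.24, SE 0.06, limma adjusted p = 0.0187). Itgax, a chain of a receptor for C3 fragments, had 40.4, 35.7, 47.9, 34.1 and 76.2 normalized counts in Sox11 1, 2, 3, 6 and 7, against 18.4, 17.3, 27.5, 9.15 and 12.5 in GFP 1, 3, 4, 5 and 6 (log2 fold change 1.44, SE 0.31, limma adjusted p = 0.00733). Of its 31-base words 89.3% are its own.

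Both other genes that fell encode regulators on the cell surface. Cr1l, known in mice as Crry, which limits C3 activation, had 869 ± 62.6 normalized counts with Sox11 and 1160 ± 124 with GFP (SD, n = 5 each), which is -0.41 on the log2 scale (SE 0.08, limma adjusted p = 0.00473). Susd4, a complement inhibitor of neurons, had 7852 ± 534 with Sox11 and 10306 ± 1017 with GFP, a log2 fold change of -0.39 (SE 0.07, limma adjusted p = 0.00390). In each of them no Sox11 library reached the lowest GFP library. Of the 12 tested membrane regulators these were the 2 that fell and none rose, beside 9.36% and 9.65% of all genes. The list's median log2 fold change was -0.08. The neuronal members Sez6l and Sez6l2 had log2 fold changes of 0.01 and -0.10.

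In the early classical and lectin list 8 of 14 genes were tested and Masp1 alone passed, beside 9.65% of all genes that rose and 9.36% that fell. C1ra, a protease that travels with C1q, had 69.7, 111, 110, 52.4 and 63.5 normalized counts in Sox11 1, 2, 3, 6 and 7, against 114, 158, 94.6, 75.2 and 107 in GFP 1, 3, 4, 5 and 6, and did not pass (log2 fold change -0.45, SE 0.25, limma adjusted p = 0.243). Of the alternative pathway, 2 of 4 genes were tested and neither passed: Cfp, or properdin, at 0.25 and Hc, the gene of C5, at 0.85, which reached the filter only through its Sox11 libraries. Cfb and Cfd had at most 1.15 normalized counts in any library. Of the terminal genes only C8g was tested, at 0.09, and the other 5 had at most 7.41 normalized counts in any library. Among 7 receptors 5 were tested. The chains of the C3 fragment receptor CR3, Itgam (-0.02, SE 0.15) and Itgb2 (0.20, SE 0.11), did not pass, and neither did Cd93 (-0.10, SE 0.30). Vtn had a log2 fold change of -0.02 (SE 0.46).

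**Figure D4:**
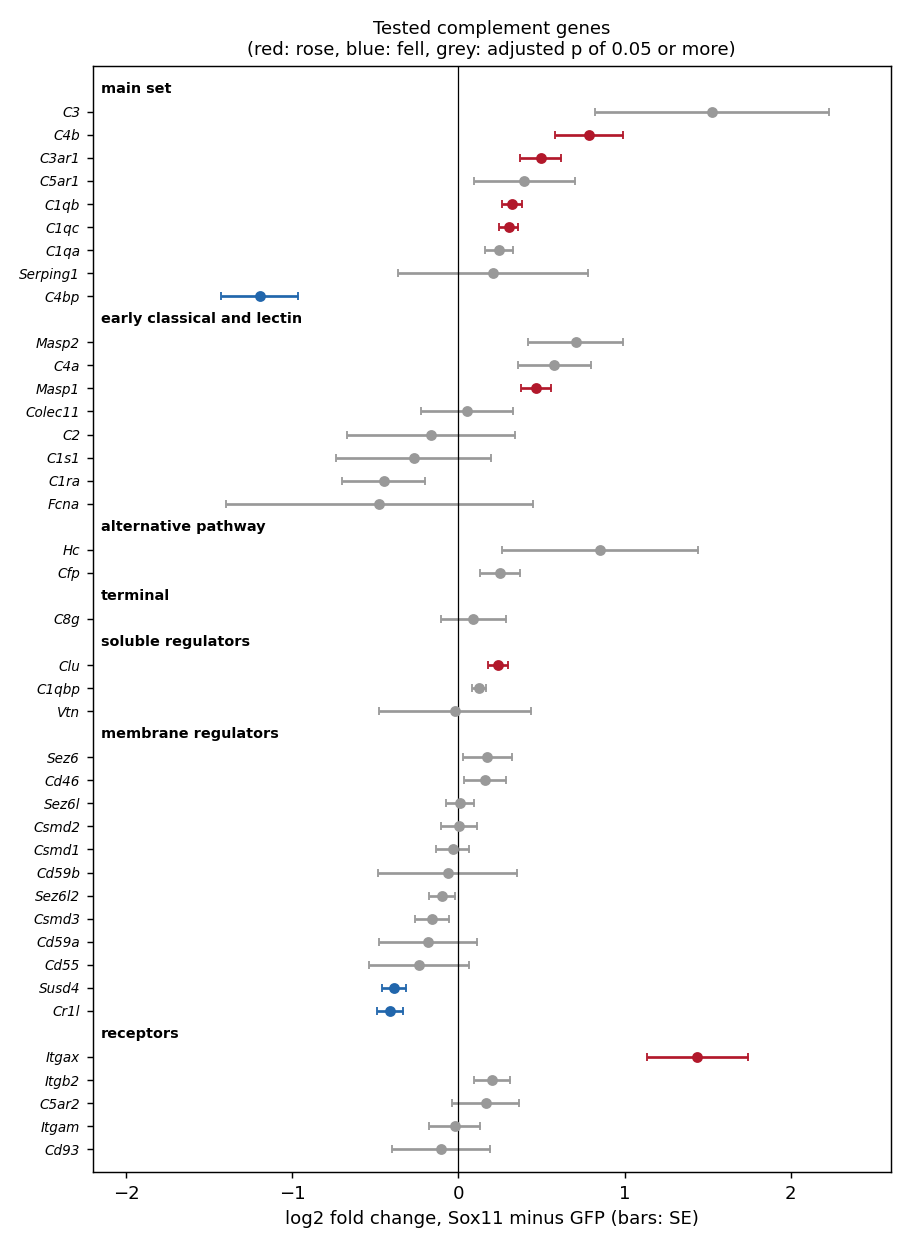
Log2 fold change, Sox11 minus GFP, with its SE (horizontal axis) for the 9 complement genes (main set) and 31 of the other tested complement genes by role, red for genes that rose, blue for genes that fell and grey for genes that did not pass. C4bp, Cr1l and Susd4, all regulators, are the genes that fell, while the regulator Clu rose and most regulators did not pass. Among the 9 genes C3 and Serping1 have the widest bars, and among the others Fcna (SE 0.93) and Hc (SE 0.59) have wide ones too.

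Leukocyte transcripts were also compared, since blood cells carry C5ar1, C3ar1 and Itgax. Of 14 markers 6 were tested, and of these 2 rose, none fell and 4 did not pass, beside 9.65% and 9.36% of all genes. The 2 that rose, named after their values were seen, were Cd52 and Ccl5. Ccl5 and Ly6c2 reached the filter only through their Sox11 libraries. The T cell marker Cd8a, below the filter, had 9.89 to 12.7 normalized counts in Sox11 libraries and 0 to 6.76 in GFP libraries, without overlap. Cd3e reached 11.6 normalized counts with Sox11 and 9.21 with GFP. The list summed to 306 to 539 normalized counts in Sox11 libraries and 162 to 405 in GFP libraries, and its part in the values of C3ar1, C5ar1 and Itgax was not tested. Of the endothelial markers Cldn5, Pecam1 and Cdh5 had log2 fold changes of 0.08, -0.05 and 0.03, and of the oligodendrocyte markers Mbp and Mog had -0.19 and -0.14. No marker of either list passed (0 of 10 and 0 of 6), and 0 of them had an unadjusted p under 0.05 in limma.

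The genes whose levels ran most alike over the 10 libraries were named by Pearson's r of log2 values, as a description, since the libraries share their group difference. For C1qb they were Gm38300 (r = 0.947), Cbs (0.944) and Nf2 (0.939), and for C1qc Nf2 (0.964), Cttnbp2nl (0.961) and Ppp1r17 (0.951). For C4b they were Slc6a6 (0.981), Slc16a3 (0.976) and Trim16 (0.968), for C3ar1 AI480526 (0.972), 2010320M18Rik (0.955) and Hyls1 (0.953), and for C4bp Riox2 (0.951), Crispld1 (0.944) and Efr3a (0.939). Among the 9 genes themselves C1qb and C1qc ran most alike (r = 0.946), then C1qa and C1qc (0.913). C4bp ran opposite to C1qb (-0.846), and Serping1 ran with none of the C1q chains (0.03 to 0.04).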

How the data were processed

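RNA from the dentate gyrus of 10 mice was sequenced with a strand-marking mRNA kit, per the labels' protocols. Named in the submitters' processing notes, without roles, are STAR 2.5.2a, featureCounts 1.5.1, cutadapt 1.9.1, DESeq2 1.12.3 and the build GRCm38. The sources used here do not give annotation release, strand setting or handling of multimapped reads. The authors deposited normalized counts, a signal made by dividing read counts by a library factor, and 100% of the values were whole reads within 0.01 reads once multiplied back. Since the numbers of columns and titles differ, a column is tied to its group and to no single sample. GENCODE M21 matched 48144 of 48526 identifiers, and RefSeq promoters (GRCm38.p6) matched 6 of the 9 genes.

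Log2(normalized count + 1), which understates changes of low genes, was fitted with limma 3.58.1 in R 4.3.3 (trend and robust) over the 17007 genes with a mean of at least 10, with Benjamini-Hochberg adjustment and a threshold of 0.05. The code was tested on simulated data. Alternatives were other pseudocounts and filters, TMM, edgeR 4.0.16, DESeq2 1.42.0, limma-voom, a covariate for low and high column numbers, a block by column number, and each library left out. By rule the text names the 9 genes, other complement genes past the threshold or among the 2 highest of a role, the first 3 markers of a list and the 3 genes of highest r with each of the 9 that passed. Other names were chosen after values were seen. The 9 genes and all lists were chosen with earlier results of these data known. Figures used matplotlib 3.10.9 in Python 3.11.15. Some genes that the rule names are not reported here.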

Additional observations from a re-analysis of the deposited data

Results flagged for a closer look

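Within groups of 5, single libraries stood apart by Dixon's test (95% critical value 0.71) in 7 of 58 groups examined, where chance alone gives about 1 in 20. C3 was highest in GFP 3 of the GFP libraries, at 112 normalized counts. C4b was lowest in Sox11 6 of the Sox11 libraries, at 1783, and C5ar1 was highest there, at 103.5. Masp1 was also lowest in Sox11 6, at 320.2 normalized counts. Sox11 itself was highest in Sox11 3 of the Sox11 libraries, at 20434, and in GFP 5 of the GFP libraries, at 1634. The summed choroid plexus markers were highest in GFP 3, at 385150 normalized counts.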

How the results depend on the processing

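Numbers 1, 3 and 6 occur among the columns of both groups, and the deviations of same-numbered libraries from their group means correlated at 0.194, 0.0675 and 0.415, not all over 0.1, so the numbers were not taken to pair the mice. Differently numbered libraries correlated at up to 0.621 (Sox11 2 with GFP 3) and down to -0.627 (Sox11 2 with GFP 5). Sox11 1, 2 and 3 correlated positively with GFP 1 and 3 and negatively with GFP 4, 5 and 6, and Sox11 6 and 7 the other way round. The main fit holds no term for this division, and the fit with the column number covariate does. A replicate block by the numbers 1, 3 and 6, chosen after seeing the data, rests on 3 pairs and leaves 2 residual degrees of freedom. With it 45 genes rose and 4 fell in limma, 0 of the 9 genes rose and 0 fell (4 had an unadjusted p under 0.05), and 0 other complement genes rose and 0 fell (7 had one). The share of all genes with such an unadjusted p in the block fit is not given here. These counts therefore have no baseline and are not read as a result. In the block fit C1qb, C1qc, C4b, C3ar1 and C4bp had log2 fold changes of 0.30, 0.31, 0.59, 0.345 and -1.40, and Serping1 had -0.4124. Without the block, C1qb, C1qc, C4bp and C3ar1 kept direction and call in all 20 other alternatives, as did Masp1, Clu, Cr1l and Susd4, and Itgax in the 19 that could be run (its mean is below 50). C4b kept its direction in those 20 and lost its call in 7, C1qa gained one in 4 and C3 in 1. Tyrobp lost its call in 10 and Laptm5 in 9. Serping1, which passed in none, changed sign with DESeq2 (-0.01169), with the column number covariate (-0.08257) and without Sox11 2 (-0.001337), GFP 5 (-0.08221) or GFP 6 (-0.04362), and reached 0.5521 without GFP 3. With the column number covariate 2067 genes rose and 1981 fell. Leaving out 1 library gave 1282 to 1584 genes that rose and 1175 to 1701 that fell, 3 to 5 of the 9 genes that rose and 1 that fell, and 3 to 4 other complement genes that rose and 2 that fell. In the same fits the log2 fold change of Sox11 was 2.89 to 3.15, and the log2 ratio differences were 0.05 to 0.11 (C1qb/C1qa), 0.03 to 0.08 (C1qc/C1qa) and -0.05 to -0.003327 (C1qc/C1qb). The causes of these changes were not tested. No scaling moved the median of all genes by more than 0.1. C4bp and C3 have few reads, which limits their precision.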

Other observations

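Genes near the 9 complement genes were also compared, within 100 kb and among those tested, where 9.65% of all genes tested rose and 9.36% fell. Of the 3 near the C1q cluster on chromosome 4, Ephb2, which encodes an ephrin receptor of synapses, rose, with means of 3072 normalized counts in Sox11 libraries and 2205 in GFP libraries (log2 fold change 0.48, SE 0.09, limma adjusted p = 0.00313), while Epha8 (0.21, adjusted p = 0.684) and Zbtb40 (-0.08, adjusted p = 0.553) did not pass. Of the 9 near C4b, C4a included, none passed in limma. Of the 4 near C4bp, AA986860 fell (log2 fold change -0.35, limma adjusted p = 0.0419). Of the 5 near C3, Gm11110 rose (log2 fold change 0.87, limma adjusted p = 0.0187), and of the 11 near Serping1, Tmx2 (-0.27, limma adjusted p = 0.00198) and Zdhhc5 (-0.18, limma adjusted p = 0.00715) fell. Near C5ar1, Meis3, a homeobox gene (0.46, limma adjusted p = 8.26e-05), and Bbc3, the cell death gene of PUMA (0.53, limma adjusted p = 0.00388), rose and 6 others did not pass. Near C3ar1, Necap1, a clathrin coat gene, fell (-0.19, limma adjusted p = 0.0155) and 6 others did not pass. These neighbours were named after their values were seen.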
